A study of Mus musculus with 27 samples.

Results

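The enzymes described here are those that take amino acids apart in the liver and turn the nitrogen they release into urea. The set was chosen by gene symbol, as the urea cycle and the catabolic enzymes of amino acids other than the branched-chain ones, and holds 38 of the 23191 gene symbols in the count table. It covers the urea cycle (6 genes), glutamine, glutamate and transamination (6), phenylalanine and tyrosine (5), tryptophan (4), lysine (1), serine and threonine (2), histidine (4), glycine cleavage (2), proline (3) and the sulfur amino acids (5). All 38 were in the table, and all 38 passed the filter on low counts in each of the 5 comparisons made.

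Most amino acids beyond the needs of protein synthesis are broken down in hepatocytes. Transaminases move the amino group to glutamate, glutamate dehydrogenase releases it as ammonia, and glutaminase frees ammonia from the amide group of glutamine. The urea cycle, which runs mainly in periportal hepatocytes, joins ammonia and aspartate nitrogen into urea. The carbon skeletons enter gluconeogenesis or oxidation, and several of the committed enzymes, tyrosine aminotransferase and serine dehydratase among them, are classic targets of glucocorticoids, glucagon and dietary protein.

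Livers came from male C57BL/6J mice that were 8 weeks old at the start and ate standard chow or a diet rich in fat and sucrose (HF/HS) for 4 weeks. HGFAC-KO mice lack hepatocyte growth factor activator, a secreted protease, in the whole body through a CRISPR deletion that removes part of exon 1 and the whole of exon 2 of *Hgfac*, so the loss is neither limited to the liver nor timed. The 4 groups were littermate controls on chow (n = 7), HGFAC-KO mice on chow (n = 6), littermate controls on HF/HS diet (n = 7) and HGFAC-KO mice on HF/HS diet (n = 7). Both diets were given ad libitum, and chow and purified diet differ in more than fat and sugar. Liver triglycerides of mice in the same genotype and diet groups were measured after an overnight fast and refeeding, but the sources used here do not tie a feeding state or hour to the livers used for RNA-Seq.

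RNA-Seq counts per mouse totalled 36056177 to 57298657, so counting error is small for every enzyme named. Levels are given as CPM, counts scaled to a common library size. *Hgfac* itself was at 65.6 to 84.7 CPM in HGFAC-KO mice on chow against 183 to 220.0 CPM in controls, and at 81.6 to 101 CPM against 247 to 293 CPM on HF/HS. The RNA left in the knockouts can include transcripts that lack the deleted exons, since counts were made per gene. Summed hepatocyte markers (9 of 10 listed genes, since the symbol *Tf* had no row) lay between 93307 and 136211 CPM, against at most 419 CPM for any of the 4 other cell type lists. In whole liver, fewer cells of a type and less RNA per cell cannot be told apart. Each mouse was 1 library, and p-values measure the spread between mice.

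Per kilobase of annotated exon, the enzymes spanned a wide range in controls on chow. *Mat1a*, which makes S-adenosylmethionine from methionine, led with 1569 CPM per kilobase. *Gnmt*, which uses that product to methylate glycine, followed with 1022, then *Hpd* of tyrosine breakdown with 851, *Ass1* with 821, *Tat* with 774 and *Cps1* with 732. *Sdsl* at 15.9 and *Prodh* at 13.9 CPM per kilobase were lowest of the 38. The 38 genes together took 2.75% to 3.50% of the counts on named genes in controls on chow and 2.43% to 2.71% in controls on HF/HS. In HGFAC-KO mice the share was 2.85% to 3.28% on chow and 2.29% to 3.02% on HF/HS. The 2 diets did not overlap in controls, whereas in knockouts the highest HF/HS mouse reached into the chow range.

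The bases upstream of the start site are shown for 5 enzymes that moved with diet, since enzymes of separate pathways fell on the same diet. RefSeq promoters (GRCm38.p6) were matched for 28 of the 38 members, among them 11 of the 18 that fell on HF/HS diet in at least 1 genotype. Those without a match included *Cps1*, *Asl*, *Gls2*, *Gpt*, *Kynu*, *Sds*, *Sdsl*, *Cth* and *Mat1a*. *Ass1*, *Nags* and *Tat* are the members that fell in both genotypes and have a matched promoter, *Hal* fell in controls and holds a C/EBP motif, and *Glud1* rose in controls. Each sequence is the 250 bases before the start, 5′ to 3′ on the gene's own strand, with the E-box of *Ass1* and the C/EBP letters of *Hal* in capitals: *Ass1* at chr2:31470020-31470269 on the plus strand, *Nags* at chr11:102145263-102145512 on the plus strand, *Tat* at chr8:109990186-109990435 on the plus strand, *Hal* at chr10:93488518-93488767 on the plus strand and *Glud1* at chr14:34310477-34310726 on the plus strand.
Ass1: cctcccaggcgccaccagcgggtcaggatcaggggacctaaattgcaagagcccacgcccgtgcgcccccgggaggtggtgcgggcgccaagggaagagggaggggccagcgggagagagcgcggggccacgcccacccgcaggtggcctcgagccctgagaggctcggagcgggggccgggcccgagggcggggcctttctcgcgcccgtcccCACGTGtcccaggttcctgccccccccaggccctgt
Nags: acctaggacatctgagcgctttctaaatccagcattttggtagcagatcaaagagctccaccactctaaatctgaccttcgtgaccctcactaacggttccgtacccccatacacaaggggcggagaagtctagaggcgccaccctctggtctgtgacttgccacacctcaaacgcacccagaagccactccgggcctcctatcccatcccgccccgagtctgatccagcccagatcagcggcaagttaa
Tat: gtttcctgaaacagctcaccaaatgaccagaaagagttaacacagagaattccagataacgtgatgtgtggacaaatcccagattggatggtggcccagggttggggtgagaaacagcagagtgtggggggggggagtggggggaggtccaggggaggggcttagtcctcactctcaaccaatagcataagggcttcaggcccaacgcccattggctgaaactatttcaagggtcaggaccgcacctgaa
Hal: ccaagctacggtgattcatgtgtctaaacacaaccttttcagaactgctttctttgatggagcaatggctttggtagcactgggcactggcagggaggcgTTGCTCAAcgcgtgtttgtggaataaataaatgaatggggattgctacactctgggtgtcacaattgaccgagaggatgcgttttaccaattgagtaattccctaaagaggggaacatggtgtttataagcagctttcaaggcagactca
Glud1: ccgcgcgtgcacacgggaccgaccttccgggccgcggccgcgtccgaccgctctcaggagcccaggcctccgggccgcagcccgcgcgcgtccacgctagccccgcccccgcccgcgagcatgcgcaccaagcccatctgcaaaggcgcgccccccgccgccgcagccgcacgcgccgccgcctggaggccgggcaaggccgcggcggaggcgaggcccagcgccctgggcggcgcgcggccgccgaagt

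The motifs searched on both strands were the cyclic AMP response element TGACGTCA and its half-site TGACG, which the full element contains, the C/EBP motif TTGCNNAA, the glucocorticoid receptor half-site AGAACA, the E-box CACGTG and the TATA box letters TATAAA. Distances are from the RefSeq start, which for *Ass1* lies downstream of the GENCODE gene start (31470207), so the end of its window, E-box included, falls within the GENCODE gene. In the *Ass1* window the E-box lies 36 bases before the RefSeq start. In the *Hal* window the C/EBP letters lie 150 bases before the start, and TATAAA, on the opposite strand and not in capitals, lies 28 bases before it. The windows of *Nags*, *Tat* and *Glud1* hold none of these letters. Among the 28 matched members, the E-box was in 2 (*Ass1* and *Cbs*), the C/EBP letters in 4 (*Aass*, *Hal*, *Hgd* and *Prodh2*), the half-site TGACG in 3 (*Aass*, *Ftcd* and *Gstz1*), AGAACA in 1 (*Haao*), TATAAA in 5 (*Ftcd*, *Got2*, *Hal*, *Hgd* and *Tdo2*) and TGACGTCA in 0. Over all 32851 promoters of this length the shares were 6.02% for the E-box, 9.56% for the C/EBP letters, 17.8% for TGACG, 16.1% for AGAACA, 12.4% for TATAAA and 1.55% for TGACGTCA. Of the 11 matched members that fell, 1 held the E-box (*Ass1*), 1 the C/EBP letters (*Hal*) and 2 TATAAA (*Hal* and *Tdo2*). The other motifs were in 0 of these 11. *Aass*, *Hgd* and *Prodh2*, which also hold the C/EBP letters, did not pass on diet by edgeR in either genotype. A match is a description of letters and not of a binding site, and the window ends 250 bases from the start.

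On HF/HS diet, more of these enzymes were lower than higher in both genotypes. In controls, 13 of the 38 fell, 1 rose (*Glud1*) and 24 did not pass, with edgeR and a Benjamini-Hochberg adjusted p threshold of 0.05 over all genes tested. Of all 13525 genes tested, 10.5% passed, 5.60% lower and 4.93% higher. In HGFAC-KO mice 12 of the 38 fell and 0 rose, where 5.89% of 13613 genes passed, 2.73% lower and 3.17% higher. At an unadjusted p under 0.05 the members numbered 24 in controls (20 lower) and 21 in knockouts (20 lower), against 25.4% and 22.4% of all genes. The median log2 fold change of the 38 was -0.17 in controls and -0.22 in knockouts, while that of all genes was 0.0036 and 0.0037. Members spanned -0.83 to 0.29 in the controls, -0.87 to 0.26 in the knockouts, so no member moved by as much as 1 log2 unit.

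**Figure D1:**
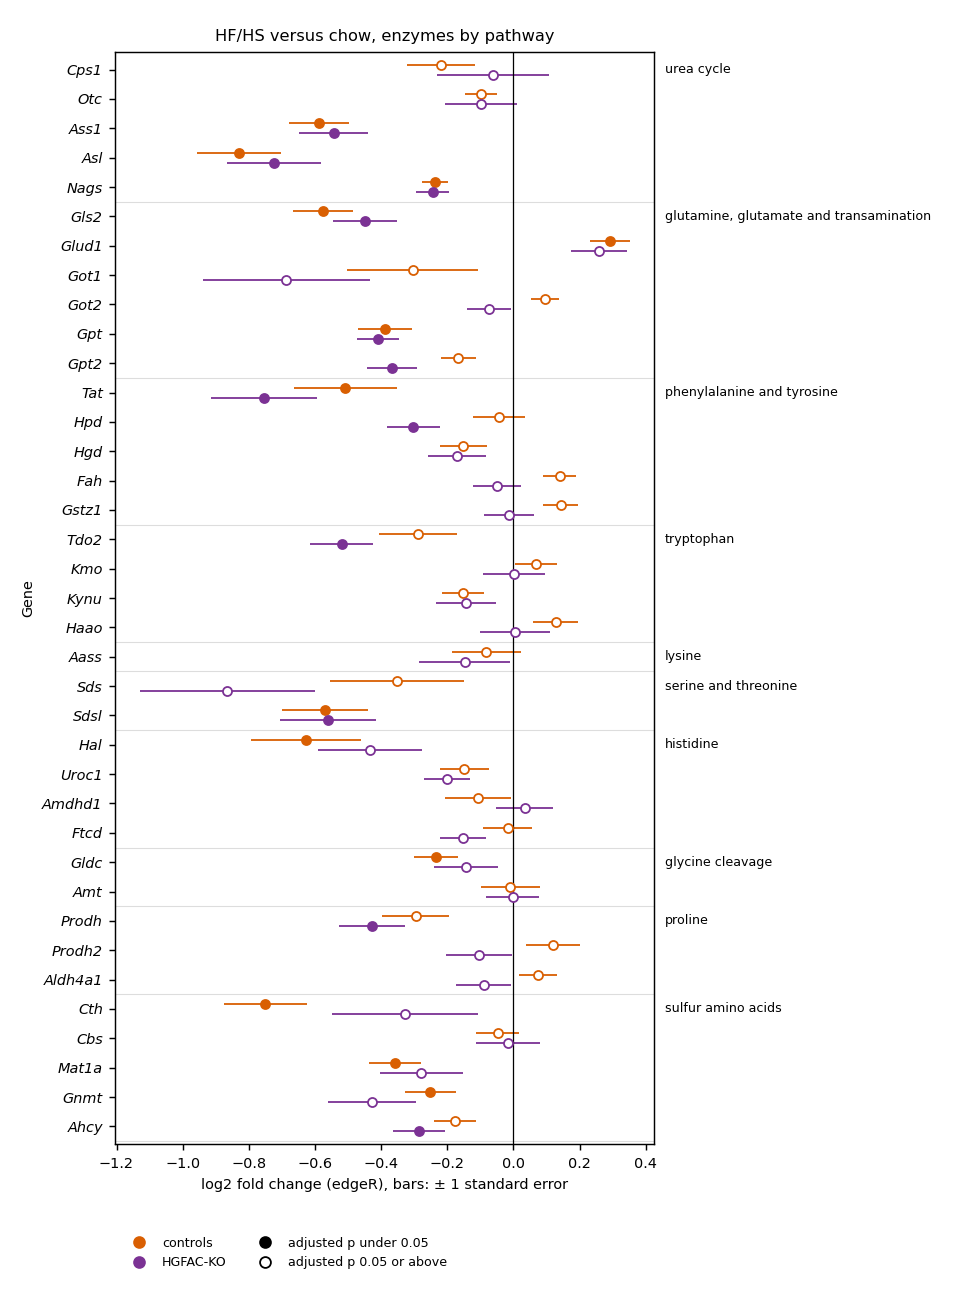
Log2 fold change of HF/HS against chow (x axis, bars ± 1 SE) for the enzymes (y axis, grouped by pathway) in controls and in HGFAC-KO mice. Filled points have an adjusted p under 0.05, and the filled points lie left of 0 except *Glud1* in controls at 0.29.

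In the urea cycle, *Ass1*, *Asl* and *Nags* fell in both genotypes. *Ass1* (chromosome 2, 31470207 to 31520672, GRCm38) encodes argininosuccinate synthase, which joins citrulline to aspartate. In controls it ranged from 1672 to 2596 CPM (median 1907) on chow and from 1178 to 1527 CPM (median 1286) on HF/HS. Every control on HF/HS lay below every control on chow, and *Ass1* fell by 33.5% with a log2 fold change of -0.59 ± 0.090 (SE, edgeR adjusted p = 0.000551). In knockouts *Ass1* ranged from 1648 to 2287 CPM (median 1931) on chow and from 1182 to 1813 CPM (median 1246) on HF/HS, a log2 fold change of -0.54 ± 0.10 (SE, edgeR adjusted p = 0.00611). There 6 of 7 HF/HS mice lay below all chow mice, and replicate 2 at 1813 CPM lay within the chow range.

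*Asl* (chromosome 5, 130011258 to 130029247), argininosuccinate lyase, which splits the product of *Ass1* into arginine and fumarate, showed the largest fall of the 38 in controls. Its level was from 665 to 957 CPM (median 765) on chow and from 329.9 to 553 CPM (median 419) on HF/HS in controls, and from 806 to 911 CPM (median 839.9) and from 398 to 756 CPM (median 467) in knockouts. The diets did not overlap in either genotype. *Asl* had a log2 fold change of -0.83 ± 0.13 (SE, edgeR adjusted p = 0.000609) in controls, where it fell by 43.7%, and -0.72 ± 0.14 (SE, edgeR adjusted p = 0.00727) in knockouts, where it fell by 39.4%.

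*Nags* (chromosome 11, 102145513 to 102149477) makes N-acetylglutamate, the activator that carbamoyl phosphate synthetase needs. Its levels were tight within each group: controls ranged from 98.2 to 105 CPM (median 102) on chow and from 78.3 to 92.1 CPM (median 87.9) on HF/HS, and knockouts from 103 to 115 CPM (median 110.4) and from 82.4 to 98.1 CPM (median 92.2). No HF/HS mouse reached the lowest chow mouse of its genotype. *Nags* fell with a log2 fold change of -0.24 ± 0.041 (SE, edgeR adjusted p = 0.00132) in controls and -0.24 ± 0.050 (SE, edgeR adjusted p = 0.0101) in knockouts. An antisense gene, *Gm11586*, overlaps 15.6% of the annotated exon bases of *Nags*, and without a stated strand setting their reads cannot be told apart.

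*Cps1* and *Otc* did not pass in either genotype. *Cps1*, which fixes ammonia into carbamoyl phosphate, ranged from 3183 to 5096 CPM (median 4002) on chow and from 2862 to 4081 CPM (median 3497) on HF/HS in controls, and from 2593 to 5143 CPM (median 4217) and from 3098 to 5524 CPM (median 3664) in knockouts. These ranges overlapped in both genotypes. Its log2 fold change was -0.22 ± 0.10 (SE, edgeR adjusted p = 0.192) in controls and -0.062 ± 0.17 (SE, edgeR adjusted p = 0.865) in knockouts. *Otc*, which couples carbamoyl phosphate to ornithine, gave -0.10 ± 0.048 (SE, edgeR adjusted p = 0.212) and -0.10 ± 0.11 (SE, edgeR adjusted p = 0.639).

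**Figure D2:**
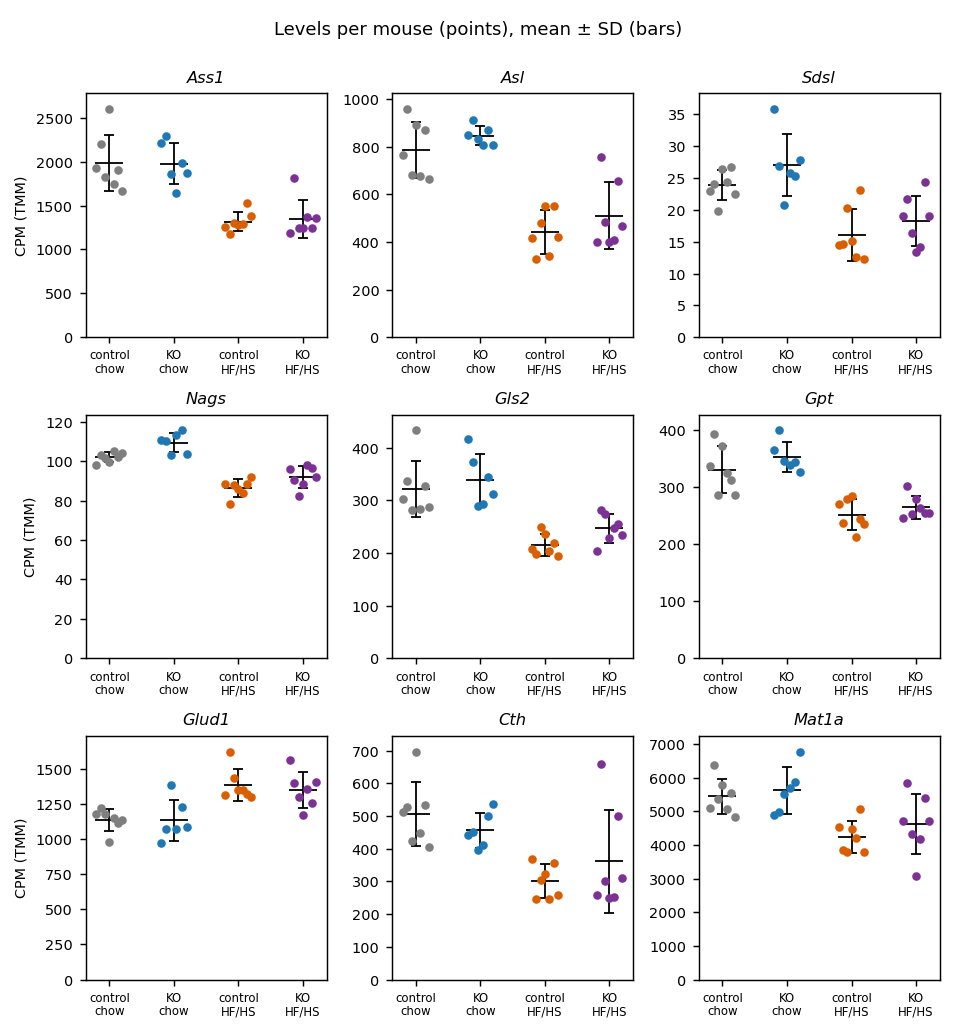
Levels in CPM (y axis, from 0) of 9 enzymes in each mouse (points) of the 4 groups (x axis), with mean ± SD bars. *Ass1*, *Asl*, *Nags*, *Gls2*, *Gpt* and *Cth* lie lower in every HF/HS control than in every chow control, and *Glud1* lies higher.

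Among the 6 genes of glutamine, glutamate and transamination, 2 fell and 1 rose in controls, and 3 fell in knockouts. *Gls2* (chromosome 10, 128194457 to 128210004), the liver glutaminase, ranged from 281 to 432 CPM (median 303) on chow and from 195 to 249 CPM (median 207) on HF/HS in controls. It ranged from 289.9 to 416 CPM (median 328) and from 204 to 282 CPM (median 247) in knockouts. The diets did not overlap in either genotype, and the log2 fold change was -0.58 ± 0.091 (SE, edgeR adjusted p = 0.000730) in controls and -0.45 ± 0.10 (SE, edgeR adjusted p = 0.0126) in knockouts. The call in knockouts held in 13 of 13 fits that each left out 1 mouse and in 8 of 9 other settings (edgeR adjusted p up to 0.0560). *Gpt* (chromosome 15, 76695716 to 76699686), the cytosolic alanine aminotransferase, ranged from 286 to 393 CPM (median 325) on chow and from 213 to 284 CPM (median 244) on HF/HS in controls, and from 326 to 399 CPM (median 345) and from 245 to 302 CPM (median 254) in knockouts. Here too no HF/HS mouse reached the chow range of its genotype. *Gpt* fell with a log2 fold change of -0.39 ± 0.082 (SE, edgeR adjusted p = 0.00647) in controls and -0.41 ± 0.063 (SE, edgeR adjusted p = 0.00132) in knockouts.

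Of the 38 genes, 7 were lower in all HF/HS than in all chow controls (among them *Ass1*, *Asl*, *Nags*, *Gls2*, *Gpt* and *Cth*), where 2.05% of genes tested were, and 1 (*Glud1*) was higher in all, where 1.52% were. In knockouts 5 were lower without overlap (*Asl*, *Nags*, *Gls2*, *Gpt*, *Tat*), against 1.45% of genes, and 0 were higher, against 1.59%.

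*Glud1*, glutamate dehydrogenase, which releases ammonia from glutamate in mitochondria, went the other way. Controls ranged from 975 to 1217 CPM (median 1148) on chow and from 1301 to 1621 CPM (median 1349) on HF/HS, with a rise of 22.3% and a log2 fold change of 0.29 ± 0.061 (SE, edgeR adjusted p = 0.00572). In knockouts the ranges were from 970.3 to 1381 CPM (median 1077) and from 1167 to 1564 CPM (median 1358) and overlapped, with a log2 fold change of 0.26 ± 0.086 (SE, edgeR adjusted p = 0.0879). Left without HGFAC-KO chow replicate 3, the highest chow knockout at 1381 CPM, the knockouts gave 0.32 (adjusted p = 0.0385).

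*Gpt2*, the mitochondrial alanine aminotransferase, ranged from 429 to 543 CPM (median 472) on chow and from 328 to 442 CPM (median 371) on HF/HS in knockouts, where 6 of 7 HF/HS mice lay below all chow mice. It fell by 22.5% there, with a log2 fold change of -0.37 ± 0.076 (SE, edgeR adjusted p = 0.00990), and gave -0.17 ± 0.053 (SE, edgeR adjusted p = 0.0530) in controls. The 2 aspartate aminotransferases did not pass in either genotype by edgeR with all mice. *Got1*, the cytosolic form, varied widely between mice, from 131 to 255 CPM (median 191) on chow and from 78.3 to 223 CPM (median 107) on HF/HS in knockouts, with a log2 fold change of -0.69 ± 0.25 (SE, edgeR adjusted p = 0.126). Left without HGFAC-KO HF/HS replicate 6, the highest HF/HS knockout at 223 CPM, it gave -0.90 (edgeR adjusted p = 0.0233) and passed. In controls it gave -0.31 ± 0.20 (SE, edgeR adjusted p = 0.365). *Got2*, the mitochondrial form, gave 0.10 ± 0.042 (SE) in controls and -0.073 ± 0.067 in knockouts.

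Of the 5 phenylalanine and tyrosine genes, 1 fell in controls and 2 in knockouts. *Tat* (chromosome 8, 109990437 to 109999803), tyrosine aminotransferase, ranged from 1354 to 2682 CPM (median 1799) on chow and from 1011 to 1927 CPM (median 1220.0) on HF/HS in controls, which overlapped. In knockouts it ranged from 1373 to 2933 CPM (median 1586) on chow and from 832 to 1208 CPM (median 1080.3) on HF/HS, and every HF/HS mouse lay below every chow mouse. The log2 fold change was -0.51 ± 0.15 (SE, edgeR adjusted p = 0.0480) in controls and -0.75 ± 0.16 (SE, edgeR adjusted p = 0.0121) in knockouts, where it fell by 40.7%. The call in controls was marginal: it held in 2 of 14 fits that each left out 1 mouse, those without control chow replicate 5 (adjusted p = 0.0335) or control HF/HS replicate 7 (adjusted p = 0.00750), and reached 0.0965 in the others. It was also lost with RLE normalization (adjusted p = 0.0516) and with no filter on low counts (adjusted p = 0.0703).

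*Hpd*, 4-hydroxyphenylpyruvate dioxygenase, the next enzyme, ranged from 1729 to 2203 CPM (median 1884) on chow and from 1362 to 1794 CPM (median 1490.5) on HF/HS in knockouts, where 5 of 7 HF/HS mice lay below all chow mice. It fell by 19.0% with a log2 fold change of -0.30 ± 0.080 (SE, edgeR adjusted p = 0.0370). This call held in 5 of 13 fits that each left out 1 mouse, with adjusted p up to 0.0913. In controls *Hpd* gave -0.044 ± 0.078 (SE, edgeR adjusted p = 0.780), with overlapping ranges. The later enzymes *Hgd*, *Fah* and *Gstz1*, which carry homogentisate to fumarate and acetoacetate, did not pass in either genotype by edgeR with all mice. Their log2 fold changes in controls were -0.15 ± 0.070, 0.14 ± 0.049 and 0.14 ± 0.053 (SE), respectively, and in knockouts -0.17 ± 0.088, -0.050 ± 0.074 and -0.013 ± 0.075. In controls DESeq2 called *Fah* (adjusted p = 0.0223) and *Gstz1* (adjusted p = 0.0331) higher. *Gstz1* also passed there by edgeR with 1 surrogate variable (adjusted p = 0.0481).

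Of the 4 tryptophan genes, *Tdo2*, tryptophan dioxygenase, which opens the indole ring in the first step of the kynurenine pathway, was the one that fell, and in knockouts. There it ranged from 938 to 1302 CPM (median 1173) on chow and from 675 to 963 CPM (median 787) on HF/HS, with 6 of 7 HF/HS mice below all chow mice. *Tdo2* fell by 30.2%, with a log2 fold change of -0.52 ± 0.10 (SE, edgeR adjusted p = 0.00490). In controls it ranged from 1169.9 to 1331 CPM (median 1295) and from 749 to 1342 CPM (median 969), and the HF/HS mice were spread over the chow range and well below it. The value there was -0.29 ± 0.12 (SE, edgeR adjusted p = 0.138). *Kmo*, *Kynu* and *Haao*, the following enzymes of the pathway, spanned log2 fold changes of -0.15 to 0.13 in controls, and -0.14 to 0.0041 in knockouts. None of these 3 passed. *Aass*, which starts lysine breakdown, gave -0.082 ± 0.10 (SE, edgeR adjusted p = 0.672) in controls and -0.15 ± 0.14 (SE, edgeR adjusted p = 0.566) in knockouts. These small values were -0.025 without control chow replicate 4 and -0.024 without HGFAC-KO chow replicate 6.

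Serine and threonine dehydratases make pyruvate and 2-oxobutyrate for gluconeogenesis. *Sdsl*, a homolog of serine dehydratase, is weakly expressed and ranged from 19.9 to 26.8 CPM (median 24.0) on chow and from 12.3 to 23.1 CPM (median 14.6) on HF/HS in controls. It ranged from 20.8 to 35.8 CPM (median 26.3) and from 13.4 to 24.3 CPM (median 19.0) in knockouts. In each genotype 5 of 7 HF/HS mice lay below all chow mice. The log2 fold change was -0.57 ± 0.13 (SE, edgeR adjusted p = 0.0102) in controls and -0.56 ± 0.14 (SE, edgeR adjusted p = 0.0335) in knockouts, and the latter passed in 5 of 13 fits that each left out 1 mouse. *Sds*, serine dehydratase, ranged from 59.7 to 143 CPM (median 66.3) and from 39.4 to 78.5 CPM (median 63.0) in controls and from 49.5 to 192 CPM (median 76.6) and from 37.5 to 66.6 CPM (median 52.2) in knockouts. Its log2 fold change in knockouts had the widest SE of the 38, -0.87 ± 0.26 (SE, edgeR adjusted p = 0.0731), and was -0.52 without HGFAC-KO chow replicate 1, the mouse at 192 CPM. It passed without HGFAC-KO chow replicate 3 (edgeR adjusted p = 0.0371). In controls it was -0.35 ± 0.20 (SE, edgeR adjusted p = 0.300), and -0.12 without control chow replicate 4, the mouse at 143 CPM. *Sds* and *Sdsl* are related genes on chromosome 5, and the exons of *Sds* overlap those of *Plbd2* on the opposite strand over 21.2% of their bases, so their counts are less certain.

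In the histidine pathway, *Hal*, histidine ammonia-lyase, the first enzyme, ranged from 230.3 to 480.1 CPM (median 391) on chow and from 172 to 290.1 CPM (median 206) on HF/HS in controls. The lower 2 chow controls lay within the HF/HS range. It fell by 35.2%, with a log2 fold change of -0.63 ± 0.17 (SE, edgeR adjusted p = 0.0265) that passed in 8 of 14 fits without 1 mouse. In knockouts it ranged from 295 to 503 CPM (median 374) and from 190.2 to 379 CPM (median 259.7) and gave -0.43 ± 0.16 (SE, edgeR adjusted p = 0.117). *Uroc1*, *Amdhd1* and *Ftcd*, the steps that follow, did not pass by edgeR with all mice, with log2 fold changes of -0.15 to -0.017 in controls, and -0.20 to 0.033 in knockouts. In knockouts *Uroc1* passed with DESeq2 (-0.20, adjusted p = 0.0422) and without HGFAC-KO HF/HS replicate 5 (-0.24, edgeR adjusted p = 0.0403).

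*Gldc*, the decarboxylase of the glycine cleavage system, ranged from 257 to 343 CPM (median 290.0) on chow and from 222 to 268 CPM (median 249) on HF/HS in controls, where 5 of 7 HF/HS mice lay below all chow mice. Its log2 fold change was -0.23 ± 0.066 (SE, edgeR adjusted p = 0.0339), which passed in 6 of 14 fits without 1 mouse, and -0.14 ± 0.10 (SE, edgeR adjusted p = 0.410) in knockouts. Its partner *Amt* gave -0.0090 ± 0.090 and -0.0025 ± 0.081 (SE). *Prodh*, proline dehydrogenase, ranged from 92.7 to 135 CPM (median 121) on chow and from 70.6 to 103 CPM (median 84.1) on HF/HS in knockouts. It fell there by 25.7%, with a log2 fold change of -0.43 ± 0.10 (SE, edgeR adjusted p = 0.0210), and did not pass without HGFAC-KO chow replicate 2 (adjusted p = 0.0580). In controls it gave -0.30 ± 0.10 (SE, edgeR adjusted p = 0.0733). *Prodh2*, which oxidizes hydroxyproline, gave 0.12 ± 0.082 in controls and -0.10 ± 0.10 in knockouts (SE), and did not pass. *Aldh4a1*, which oxidizes the product of *Prodh* to glutamate, gave 0.074 ± 0.058 and -0.090 ± 0.083 (SE), but shares 32.5% of its exon bases with *Gm21969* on the same strand, so its counts are uncertain.

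Among the sulfur amino acid genes, 3 of 5 fell in controls and 1 in knockouts. *Cth*, cystathionine gamma-lyase, which releases cysteine, ranged from 404 to 697 CPM (median 512) on chow and from 246 to 369.6 CPM (median 304) on HF/HS in controls, with no overlap. It fell by 40.5%, with a log2 fold change of -0.75 ± 0.13 (SE, edgeR adjusted p = 0.00119). In knockouts the ranges were from 397 to 536 CPM (median 446) and from 248 to 659 CPM (median 302). There 5 of 7 HF/HS mice lay below all chow mice, but replicate 2 lay above them all, and the log2 fold change was -0.33 ± 0.22 (SE, edgeR adjusted p = 0.413). Without that mouse it was -0.55 (adjusted p = 0.0620).

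*Mat1a*, methionine adenosyltransferase, ranged from 4843 to 6382 CPM (median 5362) on chow and from 3791 to 5068 CPM (median 4219) on HF/HS in controls, where 6 of 7 HF/HS mice lay below all chow mice. Its log2 fold change was -0.36 ± 0.078 (SE, edgeR adjusted p = 0.00765) in controls and -0.28 ± 0.13 (SE, edgeR adjusted p = 0.201) in knockouts. *Gnmt*, glycine N-methyltransferase, ranged from 1053 to 1530.2 CPM (median 1154) on chow and from 943 to 1081 CPM (median 1066) on HF/HS in controls, where 3 of 7 HF/HS mice lay below all chow mice. It gave -0.25 ± 0.077 (SE, edgeR adjusted p = 0.0475) in controls, which passed in 4 of 14 fits without 1 mouse and in 4 of 9 other settings (adjusted p up to 0.143), and -0.43 ± 0.13 (SE, edgeR adjusted p = 0.0694) in knockouts. *Ahcy*, which hydrolyses S-adenosylhomocysteine, ranged from 788 to 1030.0 CPM (median 923) on chow and from 668 to 862 CPM (median 727) on HF/HS in knockouts, where 5 of 7 HF/HS mice lay below all chow mice. It fell there with a log2 fold change of -0.29 ± 0.079 (SE, edgeR adjusted p = 0.0453), a call that held in 4 of 13 fits without 1 mouse, and gave -0.18 ± 0.064 (SE, edgeR adjusted p = 0.0923) in controls. *Cbs*, the first enzyme of transsulfuration, gave -0.048 ± 0.065 and -0.016 ± 0.10 (SE).

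The 2 diet comparisons share no mice. Of the genes that fell, 7 did so in both genotypes (*Ass1*, *Asl*, *Nags*, *Gls2*, *Gpt*, *Tat* and *Sdsl*), which is 53.8% of the 13 in controls and 58.3% of the 12 in knockouts. Over all genes, 242 fell in both, 32.0% of the 757 in controls and 65.2% of the 371 in knockouts. The sign of the log2 fold change was the same in both genotypes for 32 of the 38, of which 29 were lower in both, whereas 73.3% of 13469 genes tested in both had the same sign. The genotype by diet interaction, fitted over all 27 mice, passed for 0 of the 38, and for 0.00% of 13932 genes, so a call in 1 genotype and not in the other is not shown to be a difference. At an unadjusted p under 0.05 it held 4 members, where 3.63% of genes did, and DESeq2 and limma voom also called 0 of the 38, each with 4 members at an unadjusted p under 0.05. The members with the smallest p were *Hpd* (-0.26 ± 0.11 SE, edgeR adjusted p = 0.984), *Got2* (-0.17 ± 0.073 SE, edgeR adjusted p = 0.984) and *Gpt2* (-0.20 ± 0.090 SE, edgeR adjusted p = 0.984), each with a log2 fold change for HF/HS that was lower in knockouts than in controls. *Cth* gave 0.42 ± 0.26 (SE, edgeR adjusted p = 0.984) and *Tdo2* -0.23 ± 0.16 (SE, edgeR adjusted p = 0.984).

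Loss of HGFAC moved no member past the threshold on either diet. On chow 0 of the 38 passed edgeR's test, where 0.00737% of 13571 genes did (0.00% higher and 0.00737% lower), and 3 had an unadjusted p under 0.05, where 5.98% did. On HF/HS 0 passed, where 0.0148% of 13544 genes did (0.00738% higher and 0.00738% lower), and 8 had an unadjusted p under 0.05 (6 lower and 2 higher in knockouts), where 9.64% did. DESeq2 and limma voom likewise called 0 on both diets, although DESeq2 gave an adjusted p for only 36 of the 38 on chow. At an unadjusted p under 0.05 they held 3 and 3 members on chow and 9 and 8 on HF/HS. The knockouts and controls overlapped for each of the 38 on both diets, whereas 0.0811% of genes were higher and 0.0442% lower without overlap on chow, and 0.0148% and 0.0665% on HF/HS. Median log2 fold changes of the 38 were 0.057 on chow and -0.026 on HF/HS, against 0.0031 and -0.0015 over all genes.

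*Got1* had the smallest p on chow. It ranged from 106 to 174 CPM (median 142) in controls and from 131 to 255 CPM (median 191) in knockouts, so 3 of 6 knockouts lay above all controls and the others among them. The log2 fold change was 0.48 ± 0.16 (SE, edgeR adjusted p = 0.801). *Nags* followed with 0.10 ± 0.041 (SE, edgeR adjusted p = 0.801), and 4 of 6 knockouts lay above all controls, which spanned 98.2 to 105 CPM (median 102). On HF/HS, *Tdo2* had the smallest p: from 749 to 1342 CPM (median 969) in controls and from 675 to 963 CPM (median 787) in knockouts. The 2 lowest knockouts lay below all controls. Its log2 fold change was -0.38 ± 0.13 (SE, edgeR adjusted p = 0.428). *Aldh4a1* gave -0.20 ± 0.078 (SE, edgeR adjusted p = 0.448) and *Gls2* 0.19 ± 0.076 (SE, edgeR adjusted p = 0.452). The precision differed between enzymes: the log2 fold change of *Ass1* had a 95% interval of -0.20 to 0.20 on chow and an interval of -0.14 to 0.21 on HF/HS, while that of *Sds* had a 95% interval of -0.30 to 0.90 on chow.

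**Figure D3:**
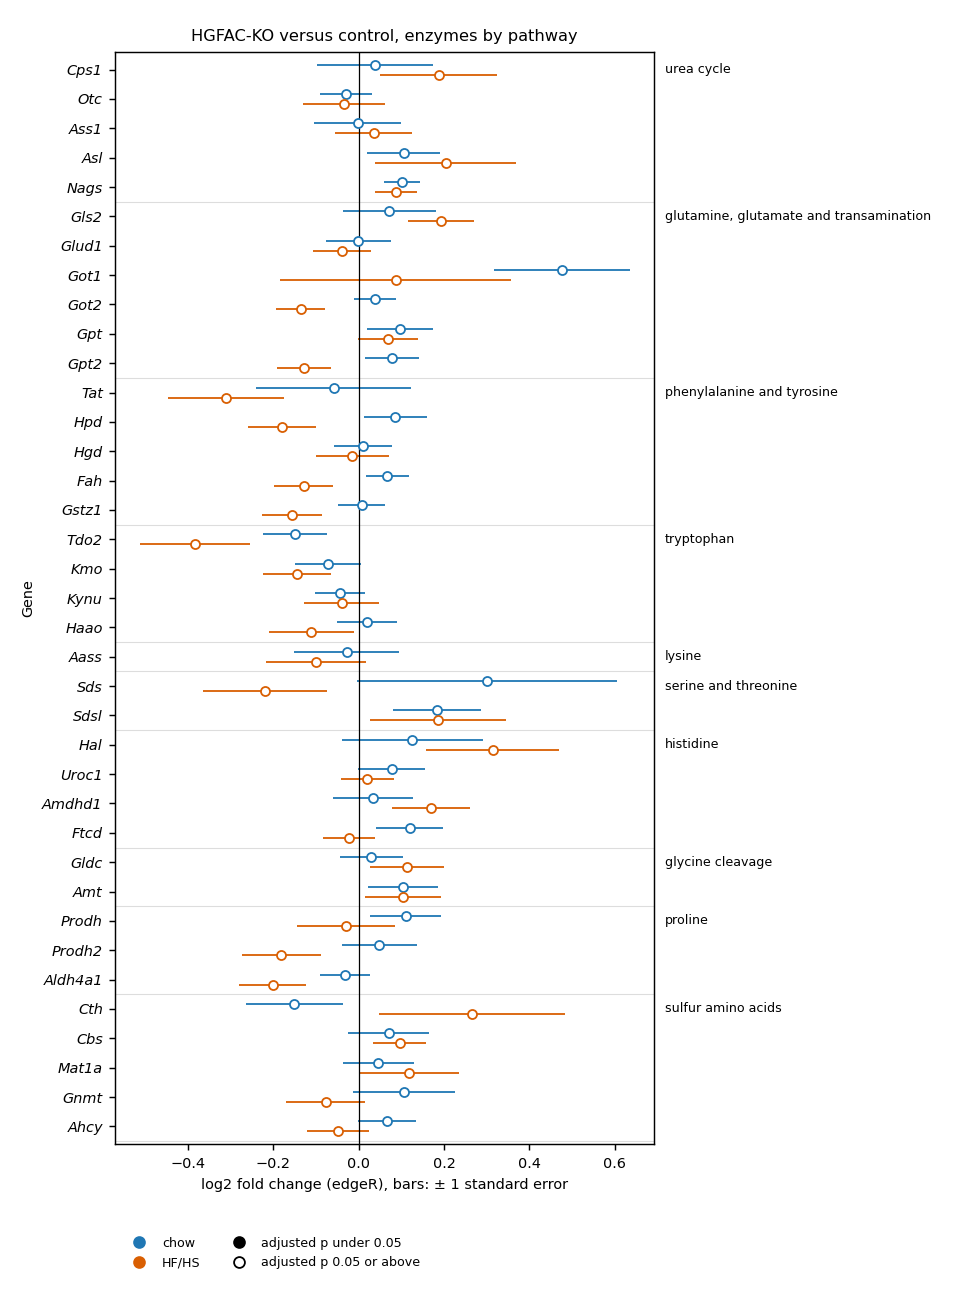
Log2 fold change of HGFAC-KO against control mice (x axis, bars ± 1 SE) for the enzymes (y axis, grouped by pathway) on chow and on HF/HS. No point is filled, since no adjusted p is under 0.05, and the points range from -0.38 (*Tdo2* on HF/HS) to 0.48 (*Got1* on chow).

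Among chow-fed mice, 2 stood apart for *Tat* and *Sds*. *Tat* was at 2682 CPM in control chow replicate 4, against 1354 to 1908 in the other controls, and at 2933 CPM in HGFAC-KO chow replicate 1, against 1373 to 1764 in the other knockouts. The same mice had the highest *Sds*, 143 CPM against 59.7 to 71.3 in the other controls and 192 CPM against 49.5 to 93.9 in the other knockouts. Control chow replicate 4 was the highest of its group for 19 of the 38 enzymes, whereas HGFAC-KO chow replicate 1 was highest for 9 and lowest for 9. Both mice also had the highest *G6pc* and *Igfbp1* of their groups, genes of the fasted liver, and the second highest *Pck1*. These genes were picked after their values were seen, and the ranks of the other fasting and feeding genes are not given here. With both left out together, a setting chosen after their values were seen, genotype on chow still gave 0 calls among the 38. Whether feeding or handling differed between mice was not tested.

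**Figure D4:**
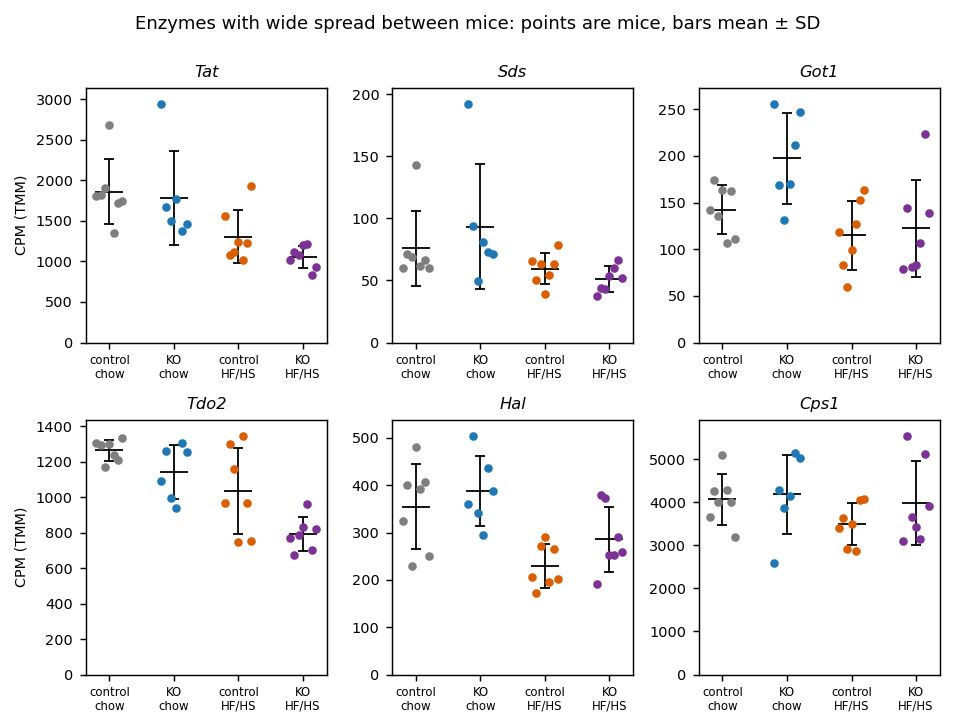
Levels in CPM (y axis, from 0) of 6 enzymes in each mouse (points) of the 4 groups (x axis), with mean ± SD bars. 1 mouse in each chow group is far above the rest for *Tat* and *Sds*, at 2682 and 2933 CPM for *Tat*.

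Beside the 38, other enzymes of hepatic amino acid catabolism moved in both directions. Of 41 other listed enzymes, 39 were tested, and 6 fell and 2 rose in controls, with the same counts in knockouts. Of all genes tested, 5.60% fell and 4.93% rose in controls, and 2.73% fell and 3.17% rose in knockouts. *Ddc*, aromatic L-amino acid decarboxylase, ranged from 87.3 to 134 CPM (median 106) on chow and from 61.0 to 81.1 CPM (median 70.5) on HF/HS in controls, with a log2 fold change of -0.62 ± 0.089 (SE, edgeR adjusted p = 0.000347) and of -0.57 ± 0.13 (SE, edgeR adjusted p = 0.0163) in knockouts. *Etnppl*, ethanolamine-phosphate phospho-lyase, was in the list although its substrate, ethanolamine phosphate, is not an amino acid. It had the largest change of the list in controls, -1.58 ± 0.26 (SE, edgeR adjusted p = 0.00157), and gave -1.01 ± 0.45 (SE, edgeR adjusted p = 0.201) in knockouts. *Hykk*, hydroxylysine kinase, rose in both genotypes, with 0.75 ± 0.13 (SE, edgeR adjusted p = 0.00219) and 0.70 ± 0.11 (SE, edgeR adjusted p = 0.00228). *Gcat* of threonine breakdown fell in both, with -0.38 ± 0.072 (SE, edgeR adjusted p = 0.00273) and -0.37 ± 0.074 (SE, edgeR adjusted p = 0.00842). The median log2 fold change of the 39 was -0.012 in controls and -0.080 in knockouts. Between genotypes 0 of the 39 passed on either diet by edgeR. At an unadjusted p under 0.05 there were 5 on chow and 7 on HF/HS, against 5.98% and 9.64% of all genes. The smallest p on chow belonged to *Cdo1* (0.21 ± 0.060, SE), *Oat* (-0.34 ± 0.12) and *Gamt* (0.24 ± 0.091), and those on HF/HS included *Oat* (-0.51 ± 0.11) and *Suox* (-0.14 ± 0.049).

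Of 27 listed transporters of amino acids and urea cycle intermediates, 25 were tested. In controls 3 fell and 2 rose, where 5.60% of all genes fell and 4.93% rose. In knockouts 0 fell and 2 rose, where 2.73% of all genes fell and 3.17% rose. *Slc1a5*, a glutamine transporter, and *Slc3a2*, the heavy chain of several exchangers, fell in controls with -0.49 ± 0.10 (SE, edgeR adjusted p = 0.00406) and -0.20 ± 0.046 (SE, edgeR adjusted p = 0.00966). *Slc7a8*, a neutral amino acid exchanger, rose in both genotypes, with 0.56 ± 0.13 (SE, edgeR adjusted p = 0.00945) and 0.69 ± 0.13 (SE, edgeR adjusted p = 0.00462). *Slc38a1*, another glutamine transporter, rose in knockouts with 0.88 ± 0.22 (SE, edgeR adjusted p = 0.0273), and *Slc6a9*, a glycine transporter, gave -0.42 ± 0.13 (SE, edgeR adjusted p = 0.0776) there. Amino acid synthesis and ATF4 response genes, which rise when amino acids are short, had 0 of 16 calls in either genotype by edgeR. At an unadjusted p under 0.05 they held 7 in controls and 4 in knockouts, against 25.4% and 22.4% of all genes. Their smallest p was that of *Fgf21*, a fasting- and stress-induced hepatokine, with 1.59 ± 0.49 (SE, edgeR adjusted p = 0.0521) in controls and 2.28 ± 0.66 (SE, edgeR adjusted p = 0.0595) in knockouts. *Eif4ebp1* gave -0.25 ± 0.083 and -0.27 ± 0.083 (SE), *Asns* -1.03 ± 0.36 in controls and *Vldlr* -0.90 ± 0.29 in knockouts. Of 14 regulators of these pathways, *Ppara* (0.42 ± 0.10 SE, edgeR adjusted p = 0.0162) and *Foxo1* (0.21 ± 0.063 SE, edgeR adjusted p = 0.0464) rose in controls. In knockouts 0 passed, with 3 at an unadjusted p under 0.05, where 22.4% of all genes were. *Ppara* gave 0.46 ± 0.13 (SE, edgeR adjusted p = 0.0527), *Creb1* 0.19 ± 0.065 and *Nr3c1* 0.17 ± 0.077 (SE) in knockouts.

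Other sets that could move with amino acid catabolism were measured beside it. Among 11 fasting and feeding genes, *Pklr* (0.73 ± 0.12 SE, edgeR adjusted p = 0.00127) and *Angptl4* (0.85 ± 0.26 SE, edgeR adjusted p = 0.0495) rose in controls, and 0 passed in knockouts, where *Pklr* gave 0.66 ± 0.21 and *Angptl4* 0.49 ± 0.36 (SE) and 2 genes had an unadjusted p under 0.05. Among 14 clock genes, *Nr1d1* (0.77 ± 0.20 SE, edgeR adjusted p = 0.0272) and *Dbp* (1.47 ± 0.39 SE, edgeR adjusted p = 0.0284) rose in controls, and 0 passed in knockouts, where *Ciart* gave -0.93 ± 0.40, *Nr1d1* 0.67 ± 0.37 and *Nr1d2* 0.39 ± 0.27 (SE) and 1 gene had an unadjusted p under 0.05. *Tef* gave 0.43 ± 0.14 in controls. Between genotypes 0 of the 14 clock genes passed by edgeR on either diet. At an unadjusted p under 0.05 there were 7 on HF/HS (3 higher and 4 lower in knockouts, median log2 fold change of the list -0.25) and 1 on chow (higher, median -0.058). Of 11 periportal markers outside the 38, 2 fell (*Etnppl* and *Hsd17b13*) and 1 rose (*Pigr*) in controls, and 0 passed in knockouts, where *Aldh1b1*, *Etnppl* and *Hsd17b13* gave -0.69 ± 0.25, -1.01 ± 0.45 and -0.18 ± 0.14 (SE). Of 10 pericentral markers, 2 fell (*Cyp1a2* and *Rhbg*) and 1 rose (*Lgr5*) in controls, and *Cyp1a2* and *Rhbg* fell in knockouts. Between genotypes 0 of the 10 pericentral markers passed by edgeR, but 10 of 10 had a lower value in knockouts on chow (median log2 fold change -0.13, 1 at an unadjusted p under 0.05) and 9 of 10 on HF/HS (median -0.36, 6 at an unadjusted p under 0.05, all lower). The 11 periportal markers also held 0 calls between genotypes, with 8 higher in knockouts on chow (median 0.049, 1 at an unadjusted p under 0.05) and 7 on HF/HS (median 0.17, 3 higher and 2 lower at an unadjusted p under 0.05). The part of feeding state, clock phase or zonation in the fall of the enzymes, or of clock phase or zonation in the genotype values, was not tested.

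On HF/HS diet, 5 of 14 Kupffer cell and leukocyte markers rose in knockouts (*Cd68*, *Clec4f*, *Cd5l*, *Ptprc* and *Adgre1*), where 3.17% of all genes rose. In controls 1 of these 14 markers rose (*S100a8*), where 4.93% of all genes did. The summed level of the 14 markers ran from 156 to 240.5 CPM on chow and from 216 to 359 CPM on HF/HS in knockouts, a log2 difference of 0.54 (two-sided exact permutation test, p = 0.00291, adjusted p = 0.0389 over 40 comparisons of library measures). In controls it ran from 166 to 357 CPM and from 202 to 419 CPM. Sinusoidal endothelial markers had 0 of 10 calls by edgeR in controls and 1 in knockouts (*Stab2*, higher), but 9 of 10 had a higher value on HF/HS in each genotype, with a median log2 fold change of 0.27 in controls and 0.35 in knockouts. At an unadjusted p under 0.05 they held 5 in controls and 6 in knockouts, against 25.4% and 22.4% of all genes. Stellate cell and fibroblast markers had 2 of 10 calls in controls (*Hgf* higher, *Lrat* lower) and 1 in knockouts (*Hgf* higher), and cholangiocyte markers had 0 of 7 tested of 8 in both, with 0 at an unadjusted p under 0.05. In controls the summed endothelial markers ran from 199 to 326 CPM on chow and from 233 to 382 CPM on HF/HS, and in knockouts from 169 to 274 CPM and from 223 to 333 CPM. The summed stellate cell and fibroblast markers of controls ran from 209.7 to 307 CPM on chow and from 245 to 316 CPM on HF/HS, those of knockouts from 152 to 301 CPM and from 227 to 377 CPM. Of 9 hepatocyte markers, *Apoa1* and *Fgb* rose in controls and *Fgb* in knockouts. Of the markers listed, *Cftr* alone was too low to be tested, and none of the other markers with a row was at 0 in any mouse. The part of cell composition in the fall of the enzymes was not tested.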

How the data were processed

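RNA-Seq was done on livers of 27 mice. Paired-end reads of stranded mRNA libraries were aligned to GRCm38 (mm10) with HISAT2 and counted per gene with featureCounts 1.6.3 by the authors, who deposited raw counts without normalization. The annotation and the strand setting used for counting are not given in the sources used here. Mice were grouped by their labels. Of 27179 rows, 3886 name no gene. They held 4.13% to 12.1% of a library's counts and were left out before scaling and testing. Where a symbol had several rows (89 symbols, 191 rows), the rows were added up. No pair of libraries within a group, of 78, agreed within sampling noise (chi-square per gene at least 17.7).

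The test was edgeR 4.0.16 (R 4.3.3), with filterByExpr (minimum count 10, minimum total 15), TMM normalization, a robust quasi-likelihood fit on the mice of each comparison, and Benjamini-Hochberg adjustment over all genes tested (threshold 0.05). The interaction used all 27 mice. Levels are TMM-scaled CPM, and log2 CPM for permutation tests used a prior count of 2. Alternatives were DESeq2 1.42.0, limma 3.58.1 voom, upper-quartile and RLE normalization, no filter, at least 10 counts in every library, 1 surrogate variable (sva 3.50.0), a replicate block, all mice fitted together, and each mouse omitted in turn. The script was tested on simulated counts. Genes named were, per diet comparison, the 12 members with the smallest p, all past the threshold in either genotype and 11 committed steps, per genotype comparison and interaction the 3 with the smallest p, and per other list the 3 with the smallest p per diet comparison (for other catabolic enzymes also per genotype comparison). Other genes were named after their values were seen. Some genes that the rule names are not reported here. The members, lists and tests were chosen with earlier results of these data known. Positions and exons are from the GENCODE annotation of GRCm38.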

Additional observations from a re-analysis of the deposited data

Results flagged for a closer look

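In 14 of 152 sets of mice examined (38 enzymes in 4 groups), 1 mouse stood further from the others than Dixon's 95% limit allows. Chance gives about 1 in 20 for normally distributed, independent sets. The CPM used were not log-transformed and the enzymes share mice, so this count does not measure an excess. The flagged values concern 12 enzymes.

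*Tat* was at 2682 CPM, against 1354 to 1908 in the rest of the group, in control chow replicate 4, and at 2933 CPM, against 1373 to 1764 in the rest of the group, in HGFAC-KO chow replicate 1. *Sds* was at 143 CPM, against 59.7 to 71.3 in the rest of the group, and at 192 CPM, against 49.5 to 93.9 in the rest of the group, in the same mice. *Gls2* was high in control chow replicate 4 at 432 CPM, against 281 to 337 in the rest of the group. HGFAC-KO chow replicate 1 also had *Cbs* at 723 CPM, against 460.0 to 539 in the rest of the group, and a low *Got2* at 452 CPM, against 509.5 to 529.9 in the rest of the group.

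*Ass1* in HGFAC-KO HF/HS replicate 2 was at 1813 CPM, against 1182 to 1368 in the rest of the group. In HGFAC-KO HF/HS replicate 5, *Fah* was at 580.5 CPM, against 415 to 485 in the rest of the group, and *Gnmt* at 1365 CPM, against 805 to 1005 in the rest of the group. Among controls on HF/HS, *Glud1* was at 1621 CPM, against 1301 to 1436 in the rest of the group, in replicate 2. *Uroc1* was at 489.9 CPM, against 411 to 444 in the rest of the group, in replicate 3, and *Amt* at 70.5 CPM, against 45.7 to 55.8 in the rest of the group, in replicate 4. *Hgd* was low in replicate 7 at 423 CPM, against 497 to 542 in the rest of the group. The cause of these values was not tested.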

How the results depend on the processing

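The number of enzymes that fell on HF/HS lay between 11 and 15 in controls and between 11 and 16 in knockouts over the 9 alternative settings, against 13 and 12. Leaving out 1 mouse gave 9 to 14 in controls and 8 to 14 in knockouts, the lowest without HGFAC-KO chow replicate 2. The number that rose was 1 in controls and 0 in knockouts, and it was 4 and 1 with DESeq2, 2 in controls with 1 surrogate variable, 1 in knockouts with all 27 mice in 1 fit, and 0 to 1 in knockouts without 1 mouse, 1 of them (*Glud1*) without HGFAC-KO chow replicate 3. No setting changed the sign of a called enzyme. *Cps1* in knockouts, not called at -0.062, ran from -0.17 to 0.00460 on the log2 scale when 1 mouse was left out, the latter without HGFAC-KO chow replicate 5 (edgeR adjusted p = 0.992). Genotype comparisons and the interaction gave 0 enzymes in every setting run, also without the 2 chow mice with the highest *Tat* and *Sds*, a setting added after the data were seen. The cause was not tested.

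Calls near the threshold changed with the setting. In controls *Gnmt* did not pass with limma voom, RLE, no filter, the block or all 27 mice (adjusted p = 0.0507 to 0.143), *Tat* with RLE (0.0516) or no filter (0.0703), and *Gldc* with the block (0.0906) or all 27 mice (0.0701). In knockouts *Ahcy* did not pass with no filter (0.0601), nor *Prodh* without HGFAC-KO chow replicate 2 (0.0580). Calls gained as higher in controls were *Got2*, *Fah* and *Gstz1* with DESeq2, and *Gstz1* with 1 surrogate variable. Calls gained under other settings, beside *Glud1* and *Sds* in knockouts, included *Gpt2* in controls, in 4 of 9 settings and 3 of 14 fits without 1 mouse, *Gnmt* in knockouts, in 2 of 9 settings and without HGFAC-KO chow replicate 6 or HF/HS replicate 5, *Prodh* in controls with DESeq2 and without control HF/HS replicate 4 or 7, *Ahcy* in controls without chow replicate 3, *Uroc1* in knockouts with DESeq2 and without HF/HS replicate 5, and *Got1* in knockouts without HF/HS replicate 6.

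The replicate numbers were not taken to pair the mice, since in no comparison did every same-numbered pair correlate above 0.1. Such correlations were above 0.1 in 1 of 7 pairs of controls and 4 of 6 pairs of knockouts between diets (median -0.048 and 0.14), where 0 and 3 correlated best with their own number, and in 1 of 6 pairs on chow and 3 of 7 on HF/HS between genotypes. Correlations of same-numbered mice ran from -0.25 to 0.10 in controls and -0.15 to 0.29 in knockouts between diets, and from -0.15 to 0.39 on chow and -0.27 to 0.30 on HF/HS between genotypes. A rule on every pair would miss a pairing shared by only some mice. With the number as a block, 11 enzymes fell and 1 rose in controls, 11 fell and 0 rose in knockouts, where *Gls2* did not pass (edgeR adjusted p = 0.0560), and 0 passed elsewhere. Over all genes the block gave 774 calls in place of 1424 in controls. In knockouts DESeq2 gave 1401 in place of 802, and leaving out HGFAC-KO chow replicate 2 gave 467. Between genotypes DESeq2 gave 13 in place of 1 on chow and 55 in place of 2 on HF/HS, 1 surrogate variable gave 2 on chow, and on HF/HS the fit of all mice gave 1, and leaving out control HF/HS replicate 7 or HGFAC-KO HF/HS replicate 5 gave 5 or 11.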

Other observations

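Within groups, single mice led many enzymes at once. In the HF/HS knockouts, replicate 5 had the highest level of 16 of the 38 enzymes, among them *Tat*, *Hpd*, *Fah*, *Gstz1*, *Tdo2* and *Haao*, and replicate 2 that of 14, among them *Cps1*, *Ass1* and *Asl*. Replicate 5 thus led 4 of the 5 phenylalanine and tyrosine genes. In controls on chow, replicates 4 and 2 were highest for 19 and 13 enzymes, and replicate 7 was lowest for 14.

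Summed hepatocyte markers were higher in knockouts than in controls on both diets. On chow the sum ran from 105351 to 118855 CPM in knockouts and from 93307 to 107936 CPM in controls, and on HF/HS from 106628 to 136211 CPM and from 94655 to 115002 CPM. The log2 differences were 0.17 (two-sided exact permutation test, p = 0.00233, adjusted p = 0.0389 over 40 comparisons) and 0.23 (p = 0.00408, adjusted p = 0.0408). *Alb*, serum albumin, which supplies most of this sum, gave 0.20 ± 0.061 (SE, edgeR adjusted p = 0.801) on chow and 0.40 ± 0.091 (SE, edgeR adjusted p = 0.331) on HF/HS. Of the 9 markers, 0 passed edgeR's test on either diet, with 3 on chow (all higher) and 2 on HF/HS (1 higher and 1 lower) at an unadjusted p under 0.05, against 5.98% and 9.64% of all genes. Their median log2 fold change was 0.074 on chow, with 6 higher and 3 lower, and 0.051 on HF/HS, with 7 higher and 2 lower, the lowest of them *Cyp2e1* at -0.33 ± 0.12 (SE). The share of counts in the 10 most abundant genes moved with the sum: on chow it ran from 17.3% to 19.5% in knockouts and 16.3% to 17.6% in controls (log2 difference 0.094, exact permutation p = 0.00758, adjusted p = 0.0606). On HF/HS it ran from 17.9% to 19.9% and 16.3% to 18.2% (log2 difference 0.15, exact permutation p = 0.00233, adjusted p = 0.0389). Its part in the hepatocyte sum was not tested. *Oat*, ornithine aminotransferase, 1 of the 10 pericentral markers, which as a list had lower values in knockouts on both diets (median -0.13 on chow and -0.36 on HF/HS), is an enzyme that makes glutamate semialdehyde from ornithine. It gave -0.34 ± 0.12 (SE, edgeR adjusted p = 0.801) on chow and -0.51 ± 0.11 (SE, edgeR adjusted p = 0.251) on HF/HS.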
